A study of Mus musculus with 20 samples.

Results

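The genes described here are 40 genes that fibroblasts of the meninges are known to express, with the collagens left out. They were taken as a list of names, and each was followed by its brightest non-control probe on the array, so that 40 of the 30210 gene names measured are covered. The values do not enter the choice of the names, but earlier results of the same arrays were known when the list was made. By role, the list holds 6 small leucine-rich proteoglycans, 8 matrix glycoproteins and elastic fibre proteins, 3 proteins of matrix processing and mineralization, 5 growth factors and a binding protein among them, 3 other secreted proteins, 8 transporters, junction and surface proteins, and 7 transcription factors and regulators.

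Meningeal fibroblasts build the layers that wrap the brain, from the pia on its surface to the arachnoid and the dura, and they follow the larger vessels into the cortex. They lay down collagens and the proteins that bind and process them, secrete signals such as bone morphogenetic proteins, and in the arachnoid barrier carry transporters and junctions that separate cerebrospinal fluid from the blood of the dura. In a piece of cortex they are a small share of the cells at its surface.

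The study asked how social stress of different duration changes gene expression in the mouse prefrontal cortex. Adult male Swiss-Webster mice, housed singly, were put as intruders into cages of group-housed males of the same stock, and unstressed brothers kept in an adjacent room served as controls. There were 4 time points, namely acute stress from a single encounter, 8 days of repeated stress, 13 days of repeated stress, and recovery, in which 13 days of stress were followed by 5 days of rest. Each time point had its own controls and 3 pairs of RNA pools, and each pool held RNA of 3 mice. The tissue was a thin coronal slice of the frontal pole, and nothing in the sources used here says whether the meninges were removed from it. The pools are the replicates, so the animals within a pool cannot be seen apart. In such bulk RNA, a change in the number of cells of a type and a change in RNA per cell cannot be told apart.

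A stress pool and a control pool were hybridised together on a dual-colour array, 20 arrays in all. Pool 1 of each time point is on 1 array with the stress RNA in red, and pools 2 and 3 are each on an original array and a dye swap, which were averaged. The ratio of an array carries a dye effect that averaging with a swap reduces and that stays in pool 1. Over all probes, the log2 ratios had an SD of 0.151 to 0.174 in the pools numbered 1 and of 0.0737 to 0.101 in the others, and original and swap, turned the same way, had r between -0.36 and -0.09. Over the 40 members this r was positive in 7 of 8 pools, from 0.00 to 0.55, and -0.25 in pool 2 of recovery. In pool 3 of 8 days, 13 days and recovery, the original array lay near 0 for many members, though not for all. The values of those members in that pool leaned on the swap array. Each of the 5 slides held the time points in the same order, so the place on the slide and the time point cannot be told apart.

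The genes were well measured in this tissue. A probe counts as above background where the scanner software marked it so in both colours, and 35 of the 40 members were so on all 20 arrays. The exceptions were Slc47a1 on 15 arrays, Thbs2 on 14, Twist1 on 11, Aspn on 4 and Lox on 0, and none of the members had a saturated spot. Of 28 further genes of meninges and fibroblasts, 23 were above background on every array. Cortical neurons, the labelled tissue, had 8 of 8 markers above background on every array, and the olfactory bulb, which lies next to the slice, had 6 of 8.

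Across the 40 members, most values were slightly lower in stressed than in control mice after a single encounter and slightly higher after 8 and 13 days. Values are log2 ratios of stress over control, in which 1 is a doubling. After acute stress 16 of 40 members (40%) were lower under stress in all 3 pools, against 14.5% of all genes, and 0 were higher in all 3, against 14% of all genes. After 8 days 12 of 40 (30%) were higher in all 3 pools, against 7.5% of genes, and 2 were lower, against 11.1%. After 13 days 14 of 40 (35%) were higher, against 12.1%, and 2 were lower, against 14.4%. In recovery 6 of 40 (15%) were higher, against 8.39%, and 2 were lower, against 12.6%. Among the 35 members above background on every array, the counts were 15 lower after acute stress (42.9%), 10 higher after 8 days (28.6%) and 14 higher after 13 days (40%), where all genes above background on every array had 13.6%, 6.34% and 14.9%.

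**Figure D1:**
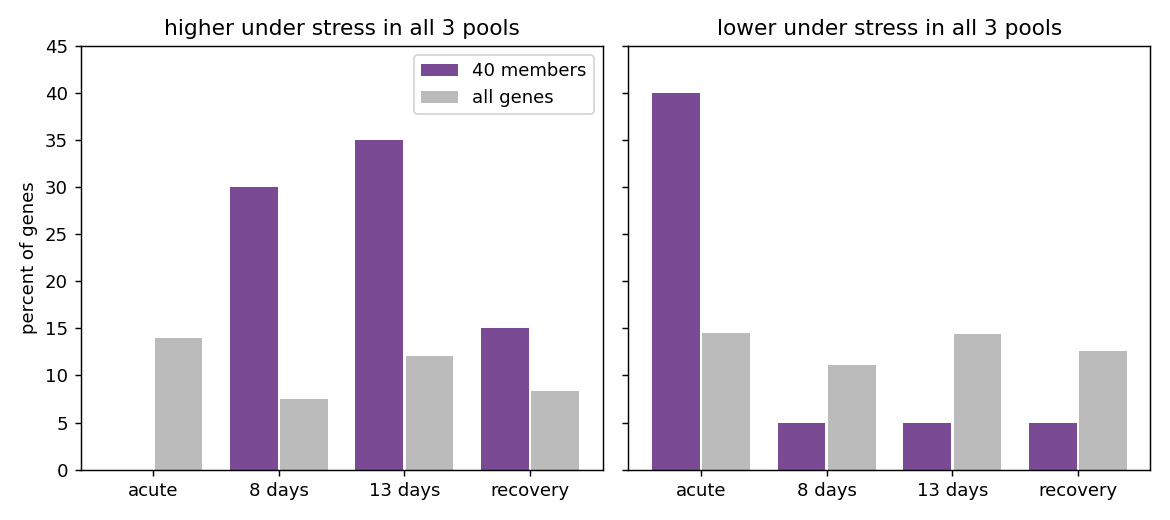
Percent of the 40 members (purple) and of all genes (grey) whose log2 ratio of stress over control was above 0 in all 3 pools (left) or below 0 in all 3 pools (right) at each time point. The members reach 40% lower after acute stress and 30% and 35% higher after 8 and 13 days, against 14.5%, 7.5% and 12.1% of all genes.

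The shifts were small. The median over the members was -0.08 for acute stress, 0.07 for 8 days, 0.05 for 13 days and 0.02 for recovery, while the median of all genes stayed within 0.01 of 0. Single pools carried these medians unequally. After acute stress the median over the members was -0.01 in pool 1, -0.13 in pool 2 and -0.12 in pool 3, with 19, 8 and 6 of the 40 members above 0. After 8 days it was 0.22 in pool 1, -0.03 in pool 2 and 0.02 in pool 3, with 37, 15 and 27 members above 0. After 13 days it was 0.12, 0.02 and 0.03, with 33, 22 and 23 members above 0. In recovery it was 0.00, -0.01 and 0.05, with 20, 19 and 26 members above 0. Of all genes, 51.9%, 49.5% and 47.4% were above 0 in the acute pools, and 52.6%, 54.6% and 35.5% after 8 days. After 13 days this share was 51.1%, 51.3% and 42.5%, and in recovery 53%, 43.4% and 46.2%.

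The higher median after 8 days thus came mainly from pool 1, the pool without a dye swap. In pool 3, 27 of the 40 members were also above 0, against 35.5% of all genes. With pool 1 left out, 13 members were higher in both remaining pools after 8 days, against 21% of genes, and 11 were lower, against 30.9%. After 13 days 17 were higher in both, against 25.2% of genes, and 12 were lower, against 31.4%. After acute stress 29 of 40 members were lower in both pools 2 and 3, against 30.8% of genes, so the acute shift did not rest on pool 1. When the mean dye effect of each probe, taken from the pools with both orientations, was removed from pool 1, the median over the members in that pool after 8 days was 0.24. Pool 1 thus stood as far from the other pools with this mean dye effect of the other pools taken out. A dye effect of its own arrays cannot be seen without a swap. The arrays of pool 1 of all time points also shared a slide, so pool 1 and that slide cannot be told apart. In what pool 1 differs was not tested.

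**Figure D2:**
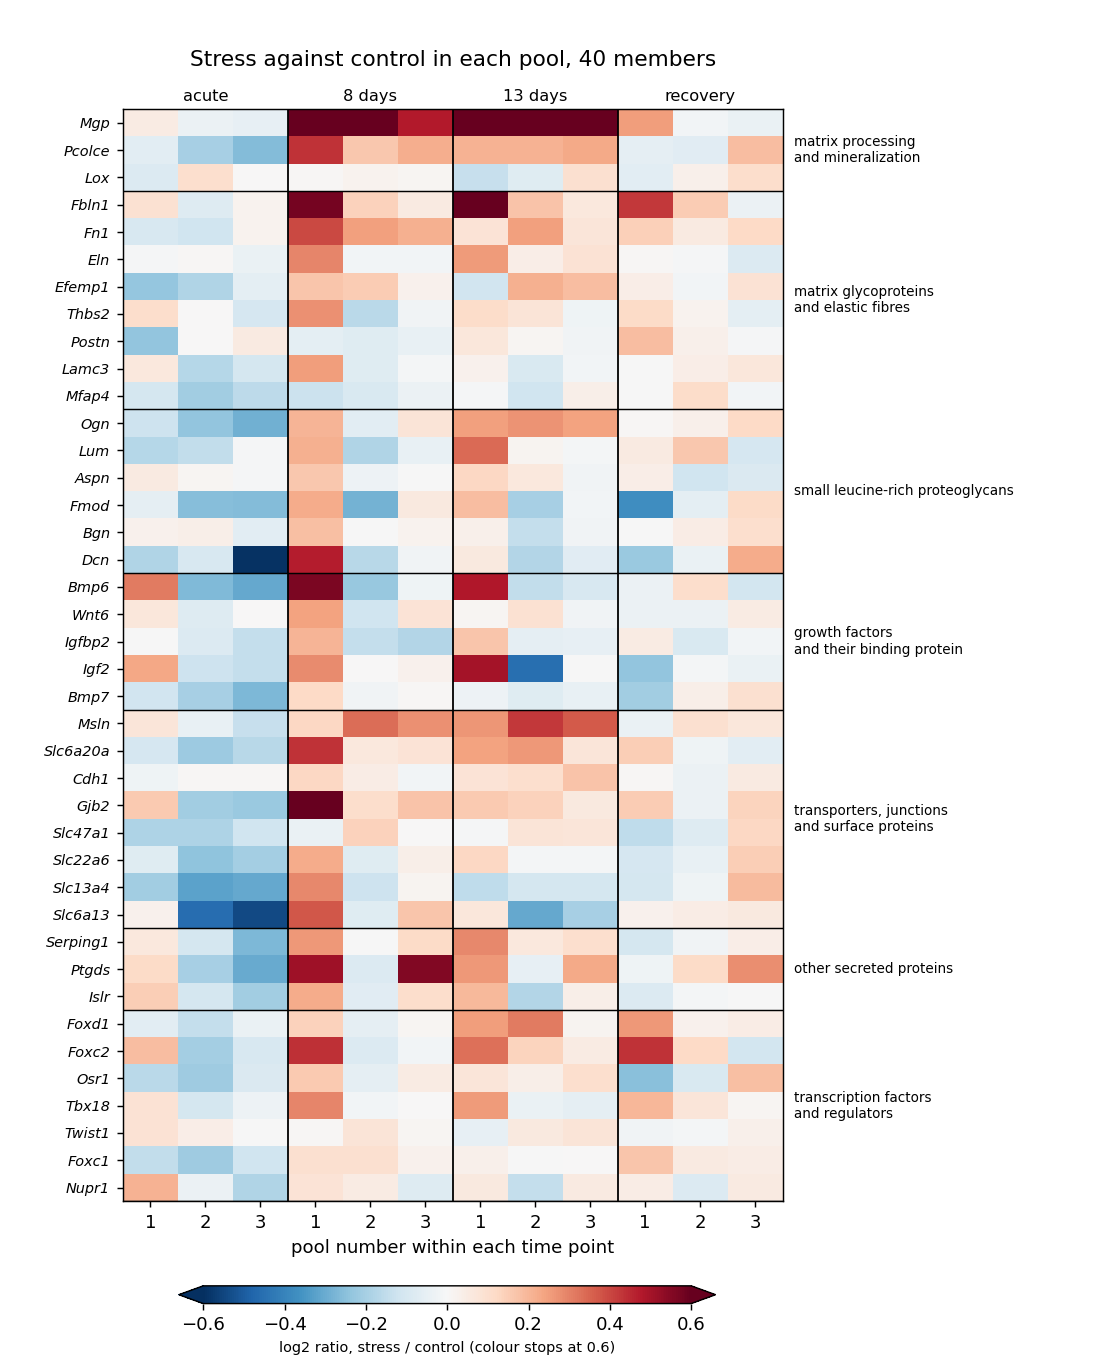
Log2 ratio of stress over control for the 40 members (rows, grouped by role) in the 12 pools (columns, 3 per time point). Blue is lower and red higher under stress, and the colour stops at 0.6. Pools 2 and 3 after acute stress are mostly blue, pool 1 after 8 days is mostly red, and the row of Mgp is red in all 6 pools of 8 and 13 days.

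A gene was called where limma's p, adjusted over all 39429 probes, was under 0.05 and the log2 ratio was over 0.5 in size. By this rule 1 of the 40 members, Mgp after 13 days, was called, where 0.0228% of all probes were. After acute stress 0 members were called, against 0.00254% of probes, and after 8 days and in recovery 0 members were called, against 0% and 0%. At an unadjusted p under 0.05 the same limma fit had 13 members after acute stress (4.94% of probes), 8 after 8 days (2.39%), 11 after 13 days (7.18%) and 2 in recovery (3.56%). No member was called in a difference between time points, where 13 days minus acute had 0.00254% of probes. With the adjusted p alone, and no minimum of size, 2 members passed after 13 days, Mgp and Msln, against 0.0304% of probes.

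A second fit took all 20 arrays with the slide as a block. An original and its swap, made from the same RNA, entered it with a correlation of only 0.0488. They thus counted almost as separate replicates, and its adjusted p can be too small where the arrays of a pool agree more than that. In it 3 members passed an adjusted p of 0.05 after acute stress (Ogn, Slc6a13 and Slc13a4, against 0.274% of probes), 1 after 8 days (Mgp, against 0.0152%), 3 after 13 days (Mgp, Msln and Ogn, against 0.134%) and 4 in the difference of 13 days minus acute (Mgp, Msln, Ogn and Pcolce, against 0.0634%). Of these, only Mgp was also over 0.5 in size at any time point or in any of the 4 differences.

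Mgp, which encodes matrix Gla protein, an inhibitor of calcification in soft tissue and vessel walls, had the highest value of the members after 8 and after 13 days. Its probe lies at chr6:136821125-136821184 on mm9. After acute stress its log2 ratios in pools 1, 2 and 3 were 0.05, -0.04 and -0.05. After 8 days they were 0.90, 0.60 and 0.48, and after 13 days 1.13, 0.67 and 0.64. In recovery they were 0.25, -0.02 and -0.04. All 6 pools of 8 and 13 days lay above all 6 pools of acute stress and recovery.

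The mean of Mgp was 0.66 ± 0.09 (SE, n = 3) after 8 days, a 1.58-fold level, with an adjusted p of 0.407 in limma. After 13 days it was 0.81 ± 0.09, a 1.75-fold level, with an adjusted p of 0.0091. Blocked by slide, the fit gave an adjusted p of 8.77e-05 after 8 days and of 1.86e-06 after 13 days. The same arrays singly showed the sign in both dye orientations. After 13 days, the original and the swap gave 0.69 and 0.64 in pool 2 and 0.50 and 0.77 in pool 3, and after 8 days 0.70 and 0.49 in pool 2 and 0.28 and 0.68 in pool 3.

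The difference of Mgp between time points pointed the same way. It was 0.82 ± 0.13 for 13 days minus acute, with an adjusted p of 0.102 over the pools and of 0.000204 with the slide as a block. For recovery minus 13 days it was -0.75 ± 0.13, with adjusted p of 0.416 and 0.00101. The call after 13 days was lost with a normexp offset of 0 (0.83, adjusted p 0.194), in the authors' value table (0.84, adjusted p 0.2), with a variance trend and robust fit (adjusted p 0.869), with median centring in place of loess (0.82, adjusted p 1), without pool 1 of that time point (0.65, adjusted p 0.11) and without pool 2 of it (0.88, adjusted p 0.123). Its value ran from 0.65 to 0.90 over 25 alternatives, all above 0.

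**Figure D3:**
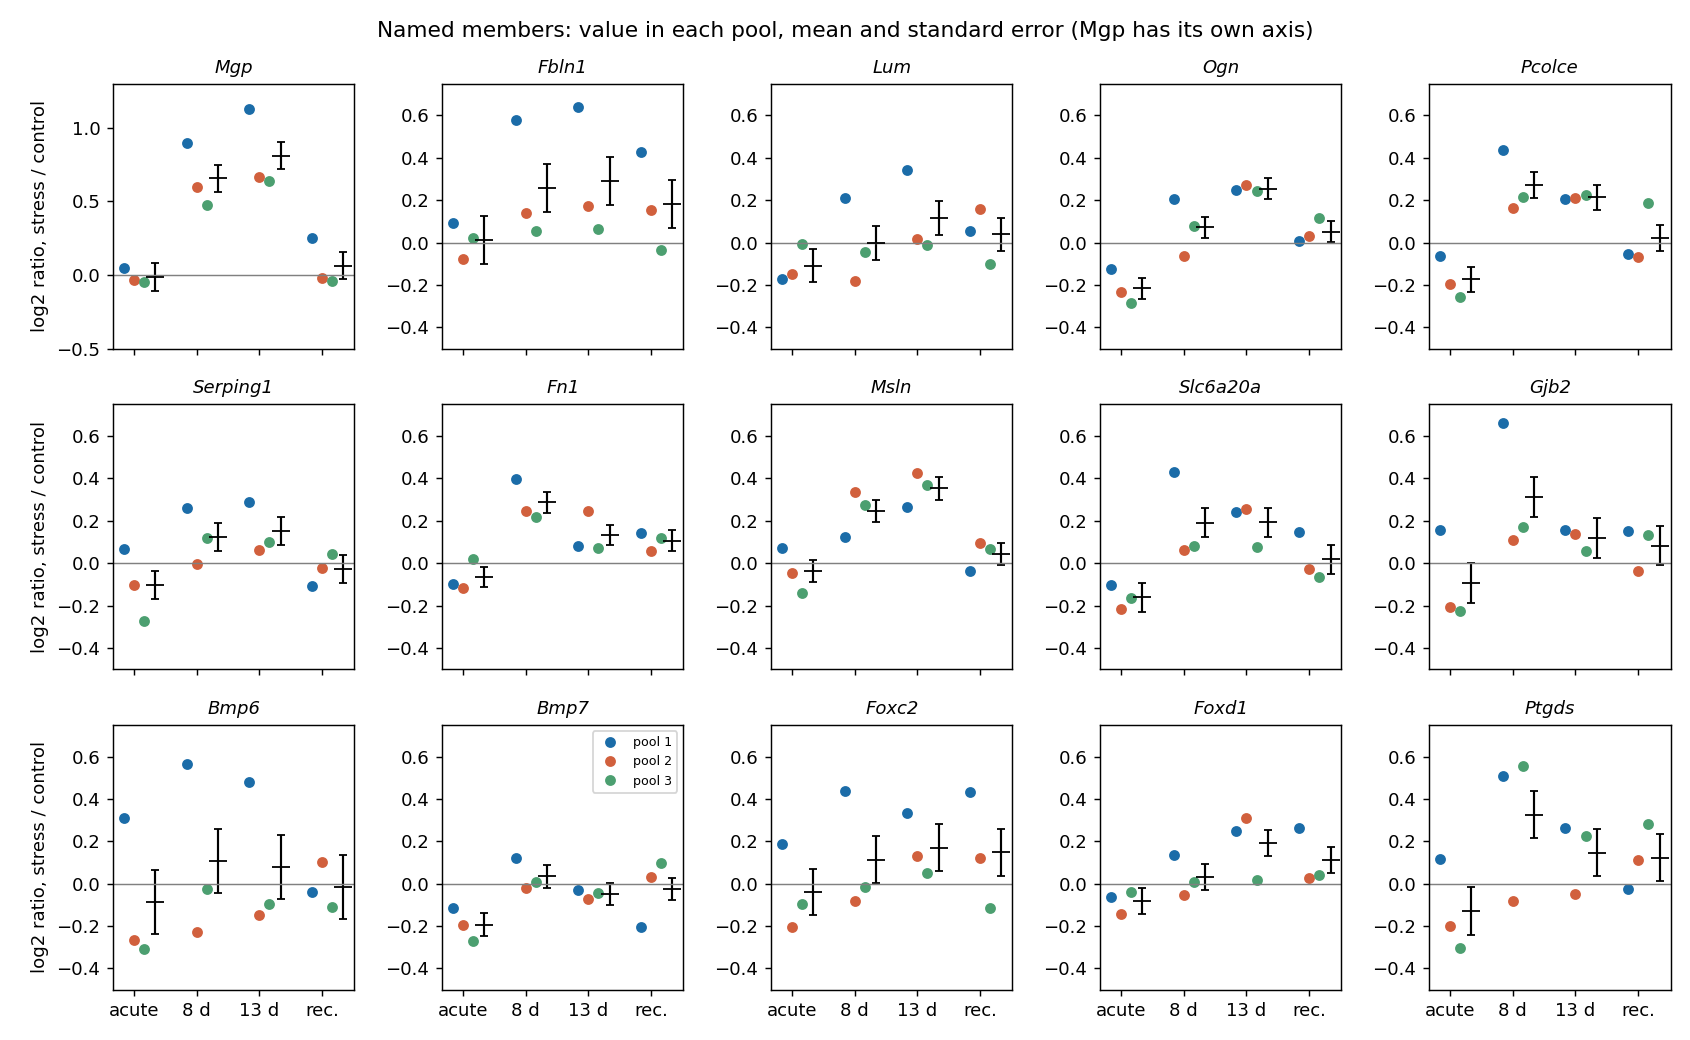
Log2 ratio of stress over control for the 15 members whose pools are given in full, at acute stress, 8 days (8 d), 13 days (13 d) and recovery (rec.). Coloured points are pools 1 to 3, and the black bar is limma's mean with its SE. Mgp, on a longer axis, stands at 0.48 to 1.13 after 8 and 13 days, and the other members stay within 0.7 of 0.

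Pcolce, which encodes an enhancer of the enzyme that trims procollagens, shares the role of matrix processing with Mgp and Lox. Its ratios were -0.07, -0.20 and -0.26 after acute stress, 0.43, 0.16 and 0.22 after 8 days, 0.21, 0.21 and 0.23 after 13 days, and -0.05, -0.07 and 0.19 in recovery. All pools of acute stress lay below 0 and all 6 pools of 8 and 13 days above 0. Pool 3 rested on the swap array, which gave 0.45 after 8 days and 0.43 after 13 days. The original array gave -0.02 and 0.02 there. The means were -0.17, 0.27 and 0.21 (SE 0.06) with adjusted p of 0.914, 1 and 0.464, and the difference of 13 days minus acute was 0.39 ± 0.08 (adjusted p 0.297, and 0.0419 with the slide as a block). Corrected for its dye effect, pool 1 after acute stress stood at 0.05 in place of -0.07, so that the acute direction then held in pools 2 and 3 only. Lox, the lysyl oxidase that cross-links collagen and elastin, was not above background on any array and had means between -0.04 and 0.02.

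Among the matrix glycoproteins and elastic fibre proteins, Fbln1 and Fn1 were higher in all 3 pools after both 8 and 13 days. Fbln1, the matrix and basement membrane protein fibulin 1, had ratios of 0.09, -0.08 and 0.02 after acute stress, 0.58, 0.14 and 0.06 after 8 days, 0.64, 0.17 and 0.06 after 13 days, and 0.43, 0.15 and -0.04 in recovery. Pool 1 stood apart at 3 of the 4 time points. Its means were 0.26 ± 0.11 after 8 days and 0.29 ± 0.11 after 13 days, with adjusted p of 1 and 0.626, and without pool 1 of the time point they fell to 0.10 and 0.12. The other 2 probes of Fbln1 had means of 0.32 and 0.15 after 13 days.

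Fn1, fibronectin, showed pools of closer value. It stood at -0.10, -0.12 and 0.02 after acute stress, 0.40, 0.25 and 0.22 after 8 days, 0.08, 0.25 and 0.07 after 13 days, and 0.14, 0.06 and 0.12 in recovery. The highest values were those of 8 days, with a mean of 0.29 ± 0.05, and after 13 days the mean was 0.13, with adjusted p of 1 and 0.589. The other 6 genes of this role, Efemp1, Postn, Thbs2, Lamc3, Mfap4 and Eln, had means between -0.16 and 0.00 after acute stress, between -0.08 and 0.12 after 8 days and between -0.03 and 0.13 after 13 days. Mfap4, a microfibril-associated protein, was lower in all 3 pools after acute stress and after 8 days, and Eln, elastin, was higher in all 3 after 13 days.

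The small leucine-rich proteoglycans bind collagen fibrils and set their width. Of the 6, 4 were lower in all 3 pools after acute stress, namely Dcn, Lum, Ogn and Fmod, and 1, Ogn, was higher in all 3 after 13 days. Ogn, osteoglycin, had ratios of -0.13, -0.23 and -0.29 after acute stress, 0.20, -0.06 and 0.08 after 8 days, 0.25, 0.27 and 0.24 after 13 days, and 0.01, 0.03 and 0.12 in recovery. The pools of acute stress and of 13 days lay on opposite sides of 0 and did not overlap. In pool 3 the original and the swap were less alike than in pool 2. They gave -0.47 and -0.10 there after acute stress, and 0.07 and 0.41 after 13 days. Its means were -0.22 ± 0.05 and 0.25 ± 0.05, with adjusted p of 0.441 and 0.196 over the pools and of 0.0246 and 0.0209 with the slide as a block.

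The difference of Ogn for 13 days minus acute was 0.47 ± 0.07, with an adjusted p of 0.102, and of 0.00188 with the slide as a block. Lum, lumican, had -0.17, -0.15 and -0.01 after acute stress, 0.21, -0.18 and -0.04 after 8 days, 0.34, 0.02 and -0.01 after 13 days, and 0.06, 0.16 and -0.10 in recovery, and its pools of 8 and 13 days fell on both sides of 0. Its mean after 13 days was 0.11 ± 0.08 (adjusted p 0.841). The other 4, Dcn, Fmod, Bgn and Aspn, had means from -0.29 to 0.02 after acute stress and from -0.06 to 0.06 after 13 days.

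Transporters, junction and surface proteins held the lowest acute value and, after Mgp, the highest value after 13 days. Msln, mesothelin, a surface protein of mesothelial cells, had ratios of 0.07, -0.04 and -0.14 after acute stress, 0.13, 0.33 and 0.27 after 8 days, 0.27, 0.42 and 0.37 after 13 days, and -0.04, 0.10 and 0.07 in recovery. Unlike Fbln1, its lowest pool after 8 and 13 days was pool 1. Pool 3 rested mainly on the swap array. The original and the swap gave 0.06 and 0.48 there after 8 days, and 0.08 and 0.66 after 13 days. In pool 2 they gave 0.22 and 0.44, and 0.49 and 0.36. The mean after 13 days was 0.35 ± 0.05, with an adjusted p of 0.0488 over the pools and of 0.00369 with the slide as a block, and after 8 days it was 0.24, with an adjusted p of 1. It did not reach 0.5, so it was not called, and its value after 13 days ran from 0.28 to 0.44 over 25 alternatives. Its adjusted p ran from 0.00369 to 1 over them and was under 0.05 in 9, so the pass at 0.0488 was lost in most, among them each setting that left out 1 pool of 13 days alone.

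Slc6a20a, a carrier of proline, was lower in all pools of acute stress, at -0.10, -0.22 and -0.17, and higher in all pools of 8 days, at 0.43, 0.06 and 0.08, and of 13 days, at 0.24, 0.26 and 0.07. In recovery it was 0.15, -0.03 and -0.07. The mean was -0.16 ± 0.07 after acute stress and 0.19 ± 0.07 after both 8 and 13 days, with adjusted p of 0.976, 1 and 0.568. Pool 2 of 13 days rested on the swap array, which gave 0.54 where the original gave -0.02. Gjb2, the gap junction protein connexin 26 of the arachnoid, had 0.16, -0.21 and -0.22 after acute stress, 0.66, 0.11 and 0.17 after 8 days, 0.16, 0.14 and 0.06 after 13 days, and 0.15, -0.04 and 0.13 in recovery. Its mean of 0.31 ± 0.09 after 8 days had an adjusted p of 1 and fell to 0.14 without pool 1 of that time point.

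After acute stress 4 of the 8 genes of this role were lower in all 3 pools, namely Slc22a6, Slc13a4, Slc6a20a and Slc47a1. The lowest mean of all members was that of Slc6a13, a transporter of GABA and taurine in the leptomeninges, which was chosen for mention after its values were seen. Its ratios were 0.02, -0.46 and -0.54 after acute stress, and both arrays of pools 2 and 3 lay between -0.58 and -0.44. The mean was -0.32 ± 0.10 (adjusted p 0.799, and 0.00807 with the slide as a block). Slc13a4, a sulfate transporter chosen for the same reason, had -0.21, -0.32 and -0.31, with a mean of -0.28 ± 0.07 (adjusted p 0.529, and 0.0343 with the slide as a block). After 13 days these 2 genes had means of -0.15 and -0.12, the lowest of the 40, so the transporters did not all share the direction of Msln.

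Serping1, the C1 inhibitor that restrains complement and contact activation, had the highest mean after 13 days of the 3 genes grouped as other secreted proteins. It had 0.07, -0.10 and -0.27 after acute stress, 0.26, 0.00 and 0.12 after 8 days, 0.29, 0.06 and 0.10 after 13 days, and -0.11, -0.02 and 0.04 in recovery, and its mean after 13 days was 0.15 ± 0.07 (adjusted p 0.668). Ptgds, prostaglandin D synthase, an abundant product of the leptomeninges, stood at 0.12, -0.20 and -0.30 after acute stress, 0.51, -0.08 and 0.55 after 8 days, 0.26, -0.05 and 0.23 after 13 days, and -0.02, 0.11 and 0.28 in recovery. Pool 2 went against pools 1 and 3 after both 8 and 13 days. In pool 3 the original and the swap disagreed, at 1.00 and 0.10 after 8 days and 0.55 and -0.10 after 13 days. Its dye effect was 0.14 towards red. Pool 1 corrected for it stood at 0.36 after 8 days and 0.12 after 13 days. Its mean after 8 days, 0.33 ± 0.11, had an adjusted p of 1.

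Growth factors showed no shared direction after repeated stress. Bmp7, a bone morphogenetic protein, was lower in all pools of acute stress, at -0.12, -0.20 and -0.27, with a mean of -0.19 ± 0.05 (adjusted p 0.66). It had 0.12, -0.02 and 0.01 after 8 days, -0.03, -0.07 and -0.04 after 13 days, and -0.21, 0.03 and 0.10 in recovery. Bmp6, of the same family, had opposite signs in pool 1 and in pools 2 and 3, at 0.31, -0.26 and -0.31 after acute stress, 0.57, -0.23 and -0.02 after 8 days and 0.48, -0.15 and -0.10 after 13 days. In recovery it was -0.04, 0.10 and -0.11. Its dye effect, 0.14 towards red, was among the larger of the members, and pool 1 corrected for it would stay above 0 at the first 3 time points. Igf2, Igfbp2 and Wnt6 had means between -0.10 and 0.10 at all 4 time points.

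The transcription factors of the list mark fibroblasts of the meninges during development, and after acute stress 3 of the 7 were lower in all pools, namely Osr1, Foxc1 and Foxd1. Foxd1, a forkhead factor, had -0.06, -0.14 and -0.04 after acute stress, 0.14, -0.05 and 0.01 after 8 days, 0.25, 0.31 and 0.02 after 13 days, and 0.26, 0.03 and 0.04 in recovery. Its mean after 13 days was 0.19 ± 0.06 (adjusted p 0.51). Foxc2, another forkhead factor, had 0.19, -0.20 and -0.10 after acute stress, 0.44, -0.08 and -0.02 after 8 days, 0.33, 0.13 and 0.05 after 13 days, and 0.43, 0.12 and -0.11 in recovery. Its mean after 13 days, 0.17 ± 0.11, had an adjusted p of 0.824. The other 5 had means between -0.16 and 0.09 at the 4 time points.

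In all, 7 members were higher in all 3 pools after both 8 and 13 days (1.73% of genes were), and 5 were lower in all 3 acute pools and higher in all 3 pools of 13 days (1.82% of genes), namely Ogn, Pcolce, Slc6a20a, Osr1 and Foxd1. Promoter windows of RefSeq, on the build GRCm38.p6, were at hand for 25 of the 40 members, and 4 are shown so that members that moved alike can be read side by side. Gjb2, Pcolce and Slc6a20a were higher in all pools of 8 and of 13 days and have 1 window each, and Ogn passed with the slide as a block after both acute stress and 13 days. Each is the 250 bases before the start of the transcript, 5′ to 3′, and capitals mark a match to TATAAA (known as the TATA box), GTAAACA (bound by forkhead factors) or AGGTGT (bound by T-box factors) on either strand.

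Gjb2, chr14:57104703-57104952, minus strand: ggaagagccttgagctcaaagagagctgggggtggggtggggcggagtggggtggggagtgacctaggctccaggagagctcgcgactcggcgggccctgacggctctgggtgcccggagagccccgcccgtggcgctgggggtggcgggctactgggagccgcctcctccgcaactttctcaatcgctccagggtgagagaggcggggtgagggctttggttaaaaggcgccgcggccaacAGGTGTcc
Ogn, chr13:49607765-49608014, plus strand: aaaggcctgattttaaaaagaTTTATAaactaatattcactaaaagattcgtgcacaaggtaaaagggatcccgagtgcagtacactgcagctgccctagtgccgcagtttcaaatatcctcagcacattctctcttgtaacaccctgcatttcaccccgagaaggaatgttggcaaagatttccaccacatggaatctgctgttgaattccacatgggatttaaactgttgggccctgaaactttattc
Pcolce, chr5:137611405-137611654, minus strand: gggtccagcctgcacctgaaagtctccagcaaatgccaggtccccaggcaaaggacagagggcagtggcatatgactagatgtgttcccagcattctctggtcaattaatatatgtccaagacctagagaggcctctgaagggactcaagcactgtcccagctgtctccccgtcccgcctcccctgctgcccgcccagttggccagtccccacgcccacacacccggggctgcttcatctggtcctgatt
Slc6a20a, chr9:123678833-123679082, minus strand: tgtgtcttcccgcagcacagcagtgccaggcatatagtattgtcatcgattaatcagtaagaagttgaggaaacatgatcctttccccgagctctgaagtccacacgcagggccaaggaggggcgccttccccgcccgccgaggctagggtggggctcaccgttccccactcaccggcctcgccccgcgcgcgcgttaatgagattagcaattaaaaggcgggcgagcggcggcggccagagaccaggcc

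The 4 windows had little in common by these letters. The GC content was 69.2% for Gjb2, 42% for Ogn, 58.8% for Pcolce and 61.2% for Slc6a20a. Gjb2 held the T-box letters close to the start, and the windows of Pcolce and Slc6a20a held none of the 3 motifs. Ogn held the TATA letters far upstream on both strands, in overlapping matches of which only the one on the other strand is in full capitals. Over all 33 windows of the 25 members, 5 held the TATA letters (15.2%), 4 the T-box letters (12.1%) and 0 the forkhead letters, where 12.4%, 11.8% and 3.17% of all 32851 windows did.

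Each channel was also set against the mean of its slide, on the log2 scale. After acute stress the median level over the members was -0.08, -0.10 and -0.08 in the 3 stress pools, and -0.07, 0.02 and 0.03 in the 3 control pools. All 3 stress pools lay below every control pool of that time point. After 8 days pool 1 combined the highest stress median, 0.16, with the lowest control median, -0.09, and pools 2 and 3 had 0.06 and 0.00 for stress and 0.08 and -0.02 for control. After 13 days the medians were 0.05, -0.06 and 0.06 for stress and -0.09, -0.07 and 0.02 for control. Medians of all genes stayed within 0.02 of 0 on both sides. As the order of the time points was the same on every slide, these levels can be set side by side within a time point but not between them. They therefore do not show which side of the ratio moved.

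**Figure D4:**
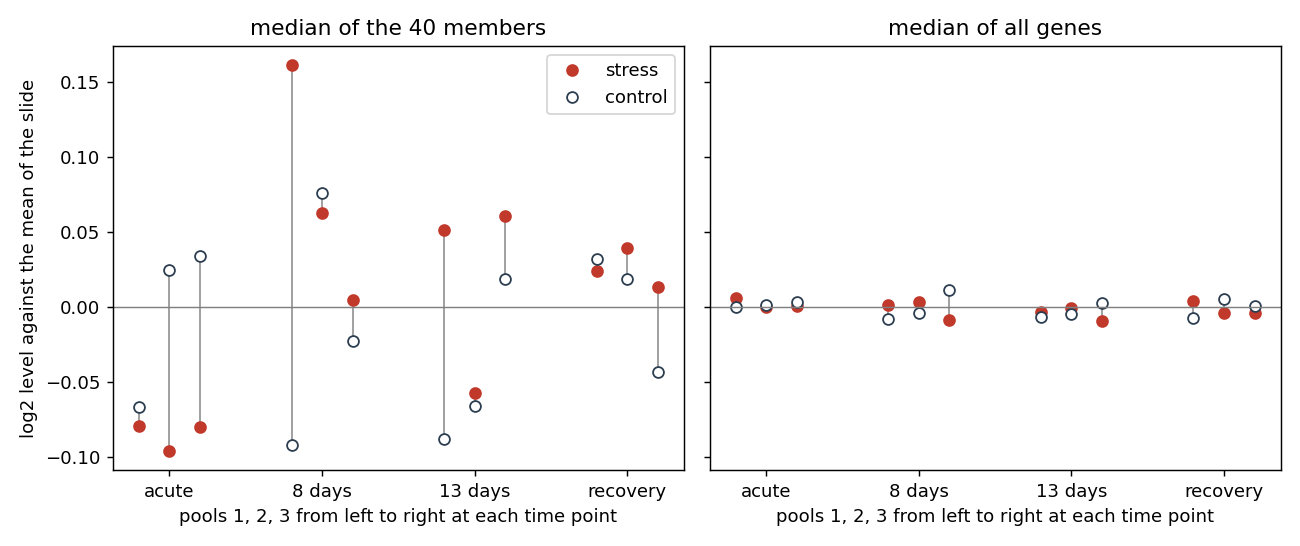
Median log2 level of the 40 members (left) and of all genes (right) in the stress (filled) and control (open) channel of each pool, against the mean of both channels over the 4 arrays of the slide. After acute stress the stress pools lie at -0.10 to -0.08, and after 8 days pool 1 has the widest gap, 0.16 against -0.09, while all genes stay near 0.

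For Mgp the levels separated at 8 and 13 days. Its stress level was 0.67, 0.59 and 0.27 after 8 days and 0.54, 0.39 and 0.61 after 13 days, and its control level was -0.23, -0.01 and -0.21 after 8 days and -0.59, -0.28 and -0.02 after 13 days. At each of these time points all 3 stress pools lay above all 3 control pools. After acute stress the stress levels of -0.16, -0.17 and 0.01 and the control levels of -0.21, -0.13 and 0.06 overlapped.

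Whether the other 39 members followed Mgp from pool to pool was tested over all probes. By Mgp, the 12 pools fall into 2 sets, the 6 of 8 and 13 days and the 6 of acute stress and recovery, so no coefficient over all 12 is given. By permutation over the 12 pools, 0 members passed an adjusted p of 0.05 with Pearson's r (smallest 0.184) and 0 with Spearman's rho (smallest 0.338), adjusted over 39415 probes. Of all these probes 0 passed with either, so the result is not particular to the members. With the 2 pools farthest from the median of Mgp left out, which are pool 1 of 8 days and of 13 days, the smallest adjusted p was 1. Within the 6 pools of 8 and 13 days, 33 of 39 members (84.6%) had an r with Mgp above 0, against 54.8% of genes, and their median r was 0.50, against 0.13 over all genes. Of the 39, 7 (17.9%) had an exact permutation p under 0.05, against 18.5% of genes. Within the 6 pools of acute stress and recovery, 26 of 39 (66.7%) had an r above 0, against 54.2% of genes, with a median of 0.24 against 0.09, and 5 (12.8%) had an exact p under 0.05, against 13.6% of genes. In both sets the share of members with an r above 0 was higher than that of all genes, and the share with an exact p under 0.05 was not. With pool 1 left out, r over the remaining pools of 8 and 13 days was below 0 for most of the 39. It ran from -0.99 for Slc6a13 to 1.00 for Efemp1, so the higher share in that set depended on pool 1.

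Other genes known from the same cells were counted in the same way. Of the 28 further genes of meninges and fibroblasts, 10 were lower and 2 higher in all 3 pools after acute stress, against 14.5% and 14% of all genes. After 8 days 8 were higher, against 7.5%. After 13 days 9 were higher and 5 lower, against 12.1% and 14.4%. Their medians were -0.05, 0.05 and 0.04, with no gene past an adjusted p of 0.05 in limma. Of 9 fibrillar and other matrix collagens, 4 were lower after acute stress, 4 higher after 8 days and 5 higher after 13 days, with medians of -0.04, 0.09 and 0.15. The members' medians at the same times were -0.08, 0.07 and 0.05.

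Markers of other cell types were measured beside them. Red cell genes had the highest median of the 9 lists after 13 days. All 6 of them were called then, with a median of 1.42, and 6 of 6 were higher in all pools after 8 days, with a median of 0.70. Their acute and recovery medians were -0.04 and 0.24. Hbb-b1, a beta globin, had ratios of 1.46, 1.91 and 1.46 after 13 days (mean 1.61 ± 0.19, adjusted p 0.0091), and Hbb-b2, another beta globin, had 1.45, 1.69 and 1.24 (mean 1.46 ± 0.16, adjusted p 0.0091). The red cell list and Mgp were thus high at the same 2 time points, and the part of blood in the values of the members was not tested. After 8 days the red cell medians were 0.60, 0.90 and 0.59 in pools 1, 2 and 3, and those of the members 0.22, -0.03 and 0.02.

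Olfactory bulb genes had the lowest median after 13 days, -0.10. Tbx21 and Nmb, their 2 largest values in size, had means of -0.16 ± 0.05 and -0.14 ± 0.07 then, with adjusted p of 0.547 and 0.709. Their median varied between pools of acute stress, at 0.20 in pool 1, 0.21 in pool 2 and -0.20 in pool 3, and the part of olfactory bulb tissue in the acute values of the members was not tested. Mural cells had medians of -0.03, 0.07, 0.01 and -0.03 at the 4 time points, endothelium -0.02, 0.06, 0.06 and -0.01, border macrophages -0.05, 0.01, 0.05 and 0.01, choroid plexus epithelium -0.03, 0.00, 0.04 and 0.02, and cortical neurons 0.03, 0.03, 0.04 and 0.02. Only 2 of the 11 choroid plexus genes were above background on every array, so their median is mostly one of dim probes. One of the pair, 1500015O10Rik, named after its values were seen, stood at 0.85, 0.64 and 0.47 after 13 days (mean 0.65 ± 0.10, adjusted p 0.0748), and its part in the values of the members was not tested. Outside red cells, no gene of these lists passed an adjusted p of 0.05 at any time point.

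**Figure D5:**
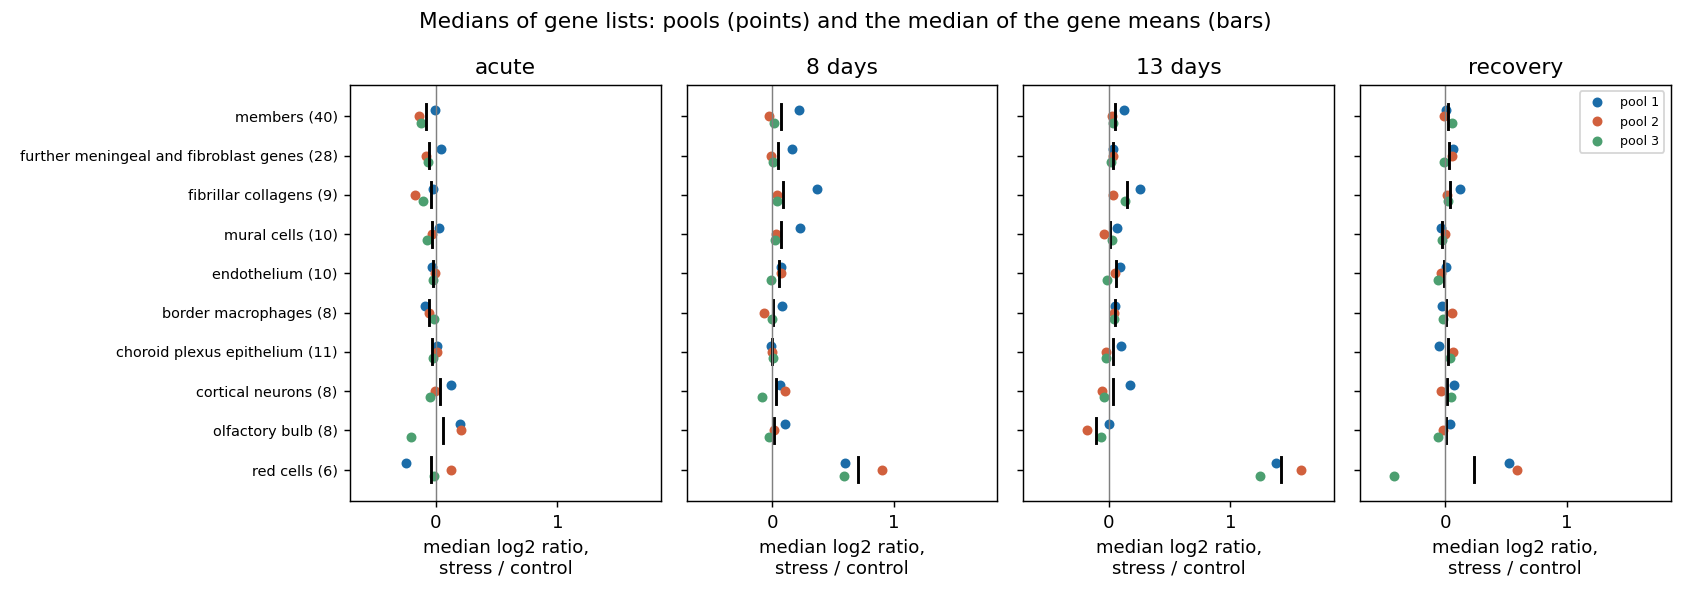
Median log2 ratio of stress over control of the members and of 9 further gene lists (number of genes in brackets) at each time point, by pool (points) and as the median of the gene means (black bar). Red cells reach 0.70 after 8 days and 1.42 after 13 days, and the bars of the members and of the other lists stay within 0.2 of 0.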

How the data were processed

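RNA of the frontal pole was measured with dual-colour mouse microarrays of Agilent (4x44K v2), 20 in all. The deposited scanner tables hold spot intensities and 0 or 1 marks that the authors made with Agilent Feature Extraction 10.10.1.1 (protocol GE2_1010_Sep10), with no normalization, and probe positions on mm9. A table deposited by the authors holds a log2 ratio per spot. Its direction was stress over control on every array when set against the ratios made here at an offset of 0 (r 0.913 to 1.00), and the study's methods name normexp, loess and Aquantile, with no offset given in the sources used here. Its column medians lay between -0.0227 and 0.0278.

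Mean intensities were corrected by normexp and normalized by loess and Aquantile as in the study's methods, with limma 3.58.1 in R 4.3.3. The normexp offset of 50 and setting outlier spots (0.314% to 0.73% of an array) to missing were choices made here. Ratios were averaged to 39429 probes and to 12 pools after turning the dye swaps. Of the probes, 57.9% to 69.5% were above background in both colours on an array. limma gave a coefficient per time point (prior degrees of freedom 4.86), with Benjamini-Hochberg adjustment over all probes. An SE is that of the fit. A second fit took the 20 arrays with slide as a fixed and pool as a random block (correlation 0.0488). Permutation p for Mgp used 100000 permutations over 12 pools and all 720 orders over 6. The script steps were tested on simulated data.

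The members and lists were chosen with earlier results of these data known. Every pool is given for members called at any time point or difference, higher or lower in all pools after both 8 and 13 days, or among the 2 largest of their role after 13 days. Alternatives were another background correction, normalization, probe rule, variance model or block, the authors' log2 table, original arrays only, and leaving out pools.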

Additional observations from a re-analysis of the deposited data

Results flagged for a closer look

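Differences between time points stand out for 9 of the 40 members, either because a test of the difference passed with the slide as a block, or because all 3 pools of one time point moved one way and all 3 of the other the opposite way. Lower in all 3 acute pools and higher in all 3 pools of 8 days were 4 members, against 0.947% of genes. With 13 days in place of 8 days these were 5 members, against 1.82% of genes. The share of all genes that meets the whole rule was not counted. The values below are differences of log2 ratios, each tested in limma over 39429 probes. Over the pools alone no adjusted p was under 0.05.

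For Mgp the difference was 0.67 for 8 days minus acute (adjusted p 0.91, and 0.0069 with the slide as a block), 0.82 for 13 days minus acute (0.102 and 0.000204) and -0.75 for recovery minus 13 days (0.416 and 0.00101). For Ogn it was 0.47 for 13 days minus acute (0.102 and 0.00188), with all pools on opposite sides of 0. Pcolce was on opposite sides of 0 in all pools for both 8 days minus acute, 0.45 (0.91 and 0.0998), and 13 days minus acute, 0.39 (0.297 and 0.0419).

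Msln differed by 0.39 for 13 days minus acute (0.171 and 0.0284). Slc6a20a had opposite signs in all pools for 8 days minus acute, 0.35 (1 and 0.489), and for 13 days minus acute, 0.35 (0.617 and 0.163), and so did Foxd1 for 13 days minus acute, 0.28 (0.837 and 0.444). The same held for Osr1 for 13 days minus acute, 0.22 (1 and 0.437), and for Efemp1, 0.27 (1 and 0.954), and Foxc1, 0.23 (1 and 0.292), for 8 days minus acute. For Slc6a20a, Foxd1, Osr1, Efemp1 and Foxc1 neither fit passed.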

How the results depend on the processing

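The 22 single-gene values examined under 25 alternatives each kept their direction in all of them, and Mgp was the one gene whose call changed. Except for Ptgds after 8 days, these were values with the same sign in all 3 pools, which are less likely to turn. Values with mixed pools, such as those of Bmp6, Lum and Foxc2 after 13 days, were not among them. Bmp6 then had a mean of 0.08 over the pools and of -0.0011 with the slide as a block. Calls of members were 0 after 13 days in place of 1 with a normexp offset of 0, with the authors' log2 table, with median centring and with a variance trend and robust fit. They were 1 (Mgp) in place of 0 after 8 days without background correction, with pool 1 left out at every time point, with the replicate block and with the slide as a block. With the replicate block and with the slide as a block they were also 1 for 8 days minus acute, 13 days minus acute and recovery minus 13 days, and with pool 1 left out 1 for 13 days minus acute and recovery minus 13 days. Pools of the same number did not deviate together throughout (r from -0.116 to 0.508 over probes), and 5 of 12 correlated best with their own number at every other time point, so the numbers were not taken as pairs, and the Mgp value with the replicate block was 0.66 after 8 days. The calls ranged from 0 to 1 after both 8 and 13 days when 1 pool was left out.

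Counts of members with the same sign in all pools depended on pool 1 and on loess. With pool 1 left out they were 3 higher and 29 lower after acute stress, 11 lower after 8 days, 12 lower after 13 days, and 12 higher and 7 lower in recovery, where only 2 pools have to agree. Leaving out 1 pool gave 0 to 4 higher and 16 to 29 lower after acute stress, 12 to 26 higher and 2 to 11 lower after 8 days, 14 to 19 higher and 2 to 12 lower after 13 days, and 6 to 12 higher and 2 to 12 lower in recovery. Original arrays alone gave 2 higher after acute stress, 0 lower after 8 days, 5 lower after 13 days, and 13 higher and 7 lower in recovery. Without background correction 1 was lower after 8 days and 1 in recovery. With pool 1 corrected for the mean dye effect, an alternative chosen after seeing the data, 1 was higher after acute stress.

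Median centring in place of loess gave 4 lower after acute stress, 3 higher and 1 lower after 8 days, 2 higher and 0 lower after 13 days, 3 higher and 1 lower in recovery with a median of 0.0596, and 33 members related to Mgp, where 92.1% of all probes were. The SD over genes of the pools numbered 1 was then 0.652 to 0.764, against 0.153 to 0.173 with loess, and the median over genes moved to 0.21 in pool 2 of 8 days and -0.19 in pool 2 of recovery. With time-point means removed, 1 member, Fbln1, was related to Mgp, where 4.76% of probes were. The medians over members ran from -0.14 to -0.04 after acute stress, 0.00 to 0.14 after 8 days, 0.02 to 0.08 after 13 days and 0.01 to 0.04 in recovery when 1 pool was left out. With 3 pools per time point, small changes cannot be resolved, and Lox, Aspn, Twist1, Thbs2 and Slc47a1 were too dim on some arrays to be measured there.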
